A study of Xenopus tropicalis with 4 samples.

Results

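OTX1 is a homeodomain transcription factor of the orthodenticle family, which vertebrates are known to use in the earliest patterning of the embryo, above all in the anterior brain and in the endoderm and mesoderm that form beside it. Frog eggs are known to store its message, and the embryo's own OTX1 protein was not measured here. Homeodomain factors are known to bind short DNA words near genes and far from them, and binding alone does not tell whether a nearby gene responds. The map described here holds the places on the Xenopus tropicalis genome where OTX1 was found at stage 8, a blastula stage around the onset of zygotic transcription. It was made from 2 of the 4 libraries of the series, replicates 1 and 2 of the OTX1 chromatin immunoprecipitation.

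Both libraries came from whole embryos that carried the label OTX1 Rescue. The embryos had received OTX1 mRNA together with an MO, the usual short form of morpholino oligonucleotide, whose target the labels do not spell out. A Myc-Tag antibody pulled down the DNA, so, as far as the labels say, the map is of tagged protein made from injected message. Whole embryos mix all their cells, so binding in a few cells cannot be told apart from weak binding in many. The other 2 libraries of the series mapped E2F1 with an HA antibody and were not compared here. The labels do not state whether each replicate had its own batch of embryos, and the names of the peaks mention library replicates, so differences between replicates 1 and 2 may be technical.

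The authors' list of replicate 1 held 27755 peaks and that of replicate 2 held 29098. Joining peaks that shared at least 1 bp gave 17768 regions found in both libraries, which contained 64.5% of the peaks of replicate 1 and 61.9% of those of replicate 2. Of these regions 17760 lay on the 10 chromosomes, and 8 lay on unplaced scaffolds. The fold of a peak is the authors' value, the summit signal divided by the local background estimated in peak calling. How often a peak was found again followed its fold. With each list cut into 10 parts by fold, of 2434 to 3104 peaks in replicate 1 and 2801 to 3010 in replicate 2, 97.3% of the highest part in replicate 1 and 97.4% in replicate 2 had a partner in the other list, whereas 43.9% and 37.4% of the lowest part had one. Across the 17768 regions the folds of the replicates had a Spearman rank correlation of 0.612 and the fragment pileups at the summit one of 0.750, both given as descriptions of regions that share their libraries. The summits of the replicates lay a median of 61 bp apart, and the median region was 415 bp wide.

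Most of the map was made of low peaks. The median fold was 5.28 in replicate 1 and 5.80 in replicate 2. The pileup, the number of fragments that overlap a summit, and the local background in the same unit were recovered from the fold and p of each peak, and the median pileup was 18 in each replicate. In 94.8% of the regions the fold was under 10 in both libraries. A fold of at least 10 in both was reached by 224 regions, and one of at least 20 by 7 regions. With pileups of this size the counting error of a single summit is several fragments, so the order of weak regions is uncertain.

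On the whole chromosomes the density of OTX1 regions was nearly the same everywhere. It lay between 10.7 regions per Mb on chromosome 10 and 12.99 per Mb on chromosome 6, a ratio of 1.22, with 12.3 per Mb over all 10 chromosomes. Gene density ran the other way and varied more: chromosome 6 had the fewest protein-coding genes, 11.6 per Mb, and chromosome 10 the most, 21.0 per Mb. There were 111.9 regions for every 100 genes on chromosome 6 and 50.9 on chromosome 10. The single lists were flatter still, with 17.7 to 20.1 peaks per Mb in replicate 1 and 18.4 to 21.3 in replicate 2. The small chromosomes 9 and 10 also had the lowest shares of peaks of replicate 1 found again in replicate 2, 60.5% and 56.7%, against 61.7% to 66.4% on the other 8.

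**Figure D1:**
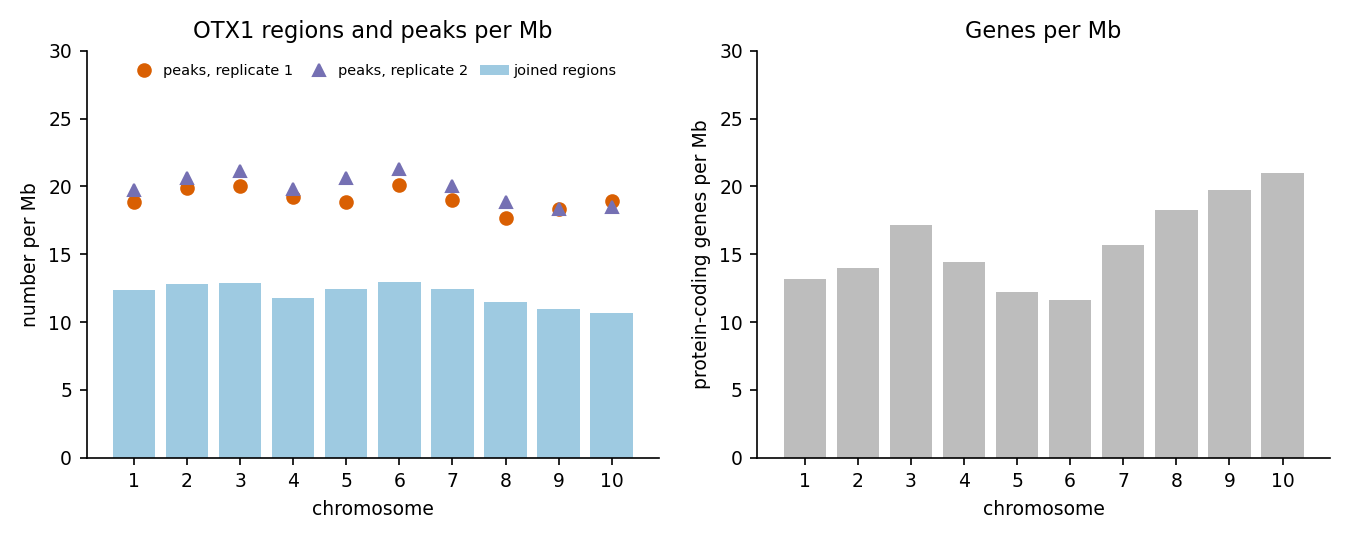
Left, joined OTX1 regions per Mb (bars) and called peaks per Mb in replicate 1 (circles) and replicate 2 (triangles) on each of the 10 chromosomes; right, protein-coding genes per Mb. Region density stays between 10.7 and 12.99 per Mb while gene density goes from 11.6 per Mb on chromosome 6 to 21.0 per Mb on chromosome 10.

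Within the chromosomes the density was far from even. The middle 50% of chromosome length held 15.4 regions per Mb and the outer 25% on both sides 9.13 per Mb. The middle was denser on all 10 chromosomes, by a ratio of 1.21 on chromosome 10 up to 1.89 on chromosome 8, and this was so in each list by itself (1.08 to 1.73 in replicate 1 and 1.15 to 1.996 in replicate 2). Genes showed the reverse on 9 of the 10 chromosomes, with fewer per Mb in the middle, and chromosome 1 was the exception with 14.6 genes per Mb in its middle and 11.7 in its outer parts. In twentieths of chromosome length, region density climbed to 17.4 per Mb in the ninth and stood at 8.23 and 6.97 per Mb in the first and the last. The local background moved with this gradient, with a median of 2.75 and 2.38 fragments in replicates 1 and 2 under the regions of the middle and 2.27 and 1.97 in the outer parts. When only peaks with low local background, at most 3 times the lowest of their list, were joined, the densities were 14.01 and 8.66 per Mb.

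**Figure D2:**
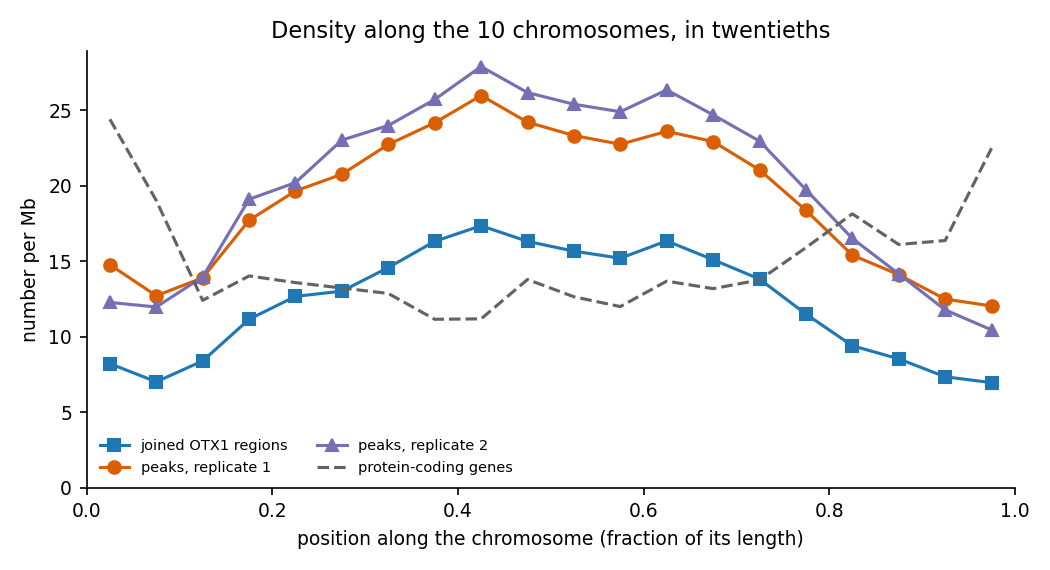
Density along the 10 chromosomes laid end over end, in 20 equal parts of each chromosome's length: joined regions (squares), peaks of replicate 1 (circles) and replicate 2 (triangles), and protein-coding genes (dashed), all per Mb. Regions and both lists are densest in the middle, with regions at 17.4 per Mb in the ninth part, while genes are densest at both ends.

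At the scale of 1 Mb windows the counts ran between 0 and 35 regions with a median of 12. The richest window, chr2:86000001-87000000, held 35 regions, built on 42 peaks of replicate 1 and 44 of replicate 2. It spans 28 protein-coding genes, among them the histone deacetylase hdac1 and the neural basic helix-loop-helix gene olig4. Next came chr6:71000001-72000000 with 31 regions and only 8 genes, including trio and the axonemal dynein gene dnah5. The window chr7:63000001-64000000 also had 31 regions, and among its 14 genes are the kinesin gene kif1b and ctnnbip1, an inhibitor of beta-catenin.

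The positions of regions relative to genes followed the amount of sequence of each kind, except right at the gene ends. Summits within 1 kb of either end of a protein-coding gene made up 8.32% of the regions (1478), on 5.61% of the chromosome length. A further 47.0% (8352) lay inside genes, which is also 47.1% of the length, 14.5% (2574) outside but within 10 kb of a gene end, and 30.2% (5356) farther out, here called distal. The corresponding densities were 18.2, 12.2, 13.2 and 10.9 regions per Mb. The gene table gives no strand, so a gene end may be the start or the finish of the gene.

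The excess at gene ends was narrow. In the first 0.5 kb the density was 21.5 regions per Mb on the inner side and 25.4 on the outer side. From 0.5 to 1 kb it was already 13.3 and 12.01 per Mb, and it stayed between 11.7 and 12.7 per Mb everywhere deeper inside genes, even beyond 200 kb from an end. Outside genes it was 12.9 to 13.4 per Mb from 1 to 10 kb and was 10.3 to 11.4 per Mb beyond. Both lists had the same step: 43.2 and 36.3 peaks per Mb in replicates 1 and 2 in the innermost 0.5 kb, against 23.5 and 24.0 in the next 0.5 kb. The regions at gene ends were not taller than the others. Their median folds were 5.05 and 5.48 in replicates 1 and 2, below the 5.39 and 5.91 of distal regions.

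**Figure D3:**
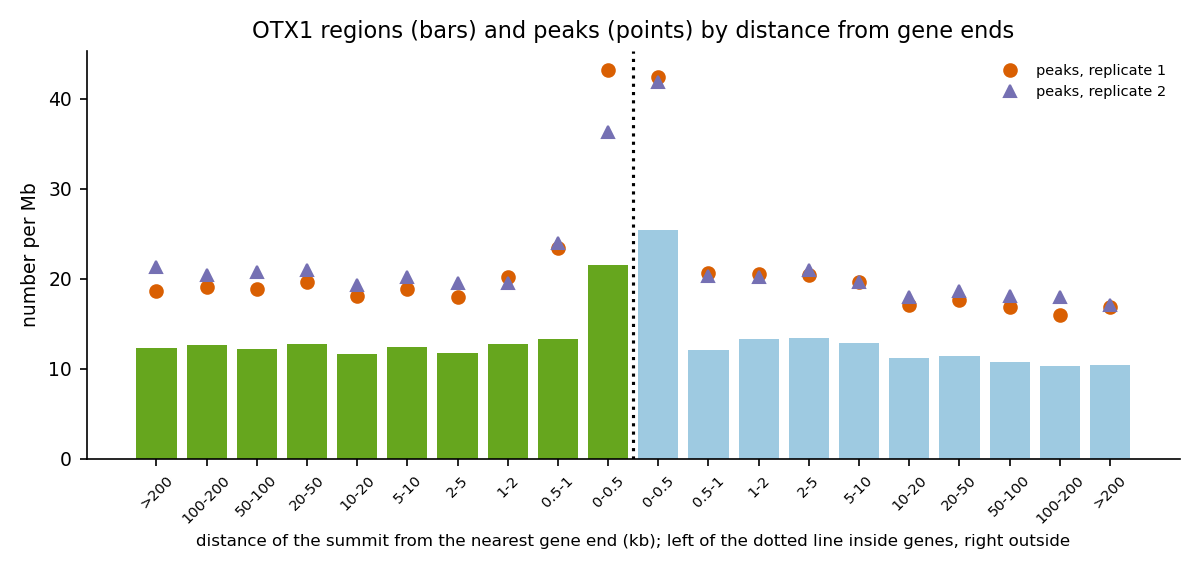
OTX1 regions per Mb (bars) and peaks per Mb in replicate 1 (circles) and replicate 2 (triangles) by the distance of the summit from the nearest end of a protein-coding gene in kb, inside genes to the left of the dotted line and outside to the right. The bars stand out within 0.5 kb of a gene end, at 21.5 and 25.4 regions per Mb, and are otherwise between 10.3 and 13.4 per Mb.

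Among 21748 protein-coding genes, a region at an end was found for 1560 (7.17%), inside or within 10 kb for 9049 (41.6%) and inside for 5374 (24.7%), and 2735 were the gene nearest to a distal region (12.6%). No region of any of these kinds was assigned to 11486 genes. Long genes held regions in proportion to their length. A region lay inside 4.04% of genes of 2 to 5 kb, inside 76.8% of genes of 100 to 200 kb and inside all 61 genes over 500 kb, yet the density inside was between 11.8 and 12.9 regions per Mb for every length class above 2 kb.

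Regions were ranked by the lower of their fold percentiles in the 2 lists, and the 8 first in each position class are described. A pair of distal regions on chromosome 9 stood far above all others. At chr9:55840980-55841267 the fold was 46.2 in replicate 1 and 45.8 in replicate 2 over pileups of 302 and 289 fragments. At chr9:55707093-55707614 it was 43.1 and 46.6 over pileups of 304 and 311. The nearest gene of both carries only a locus number. The region with the largest pileup in replicate 1, chr6:130885891-130886614, lay 52725 bp from ywhaz, which encodes a 14-3-3 adaptor protein, with 313 and 240 fragments, but also on the highest backgrounds among these tall regions, 16.7 and 13.3, so its folds were 17.7 and 16.8. Other tall distal regions had as nearest named genes the zinc finger gene zscan2, with folds of 21.1 and 21.0, and polr2j, a subunit gene of RNA polymerase II, with 16.82 and 16.996.

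Inside genes the tallest region lay in pla1a, a phospholipase gene, with folds of 28.1 and 30.2 in replicates 1 and 2. Next was efna1, which encodes an ephrin, a membrane-bound guidance ligand, with 23.8 and 20.5, at chr8:145902591-145902987. The same gene had a second region 3.83 kb outside it, with 14.3 and 12.7. A gene known by locus number alone was next, with 18.9 and 19.1. The other named genes among the first 8 were, in order, wdfy3 (14.3 and 18.0), an autophagy adaptor gene, coil (13.5 and 15.8), the gene of the Cajal body protein coilin, and lsamp (14.6 and 14.9), a neural cell adhesion gene. At gene ends folds were lower. The first was at ube2z, a ubiquitin-conjugating enzyme gene, with 11.996 and 14.8 at 61 bp from its end, followed by rnf112, a RING finger gene, with 13.5 and 13.6 at 658 bp. The other named genes among the first 8 were fucolectin, letm2 and elovl5, which encodes a fatty acid elongase, with folds of 10.4 to 11.97 in replicate 1 and 11.6 to 12.8 in replicate 2. Of the 32 tallest regions, 8 in each position class, the nearest or holding gene had a name in 14 cases and only a locus number in 18. Among all 21748 protein-coding genes, 6156 have only a locus number.

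Most regions were not grouped. Neighbouring summits lay a median of 48.5 kb and a mean of 81.5 kb apart. How many would group at this density if evenly scattered was not worked out. With summits chained at gaps of at most 12500 bp, 68.0% of the regions stood alone, and 501 clusters of 3 or more held 1637 regions (9.22%). The regions in clusters were not taller: their median folds were 4.94 and 5.36 in replicates 1 and 2, against 5.38 and 5.93 for lone regions. Their summits did hold more fragments, a median of 21 and 20 against 18 and 17, and they sat on higher local background, 3.39 and 2.91 fragments against 2.45 and 2.102. The part that background plays in the clustering was not tested.

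The 4 largest clusters had 6 regions each. In 3 of them some regions had a gene of a secreted signal as the nearest gene, while others were closer to other genes. On chromosome 1 a stretch of 42.7 kb around pnhd and admp held 6. Admp is a BMP-type ligand of the Spemann organizer and pnhd, known as pinhead, is a secreted protein known to oppose it. The tallest of these regions lay 1.12 kb from admp with folds of 8.29 and 7.66 in replicates 1 and 2. On chromosome 5 a stretch of 22.5 kb held 6 regions around lefty, a secreted Nodal inhibitor, with folds of 3.82 to 5.82 in replicate 1 and 3.43 to 7.76 in replicate 2. On chromosome 1 another cluster of 29.6 kb ran between fgf2, a fibroblast growth factor gene, and the small genes bbs12 and cetn4, with folds of up to 7.71 and 8.13. The fourth lay beside plk3, a polo-like kinase gene, on chromosome 4, with folds of 4.28 to 6.67 and 4.40 to 8.69.

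The tallest cluster among the 8 largest held 5 regions in 23.5 kb of chromosome 5 at mixer and mix1, paired-type homeobox genes that are known as early zygotic regulators of mesoderm and endoderm. At mixer the region 234 bp from an end had folds of 8.65 and 14.3, and the region between the genes, 4.48 kb from mixer, had 7.79 and 12.4. At mix1 the region 61 bp from an end had 10.1 and 10.5, and a second one at 371 bp had 5.52 and 4.53. Replicate 2 was higher than replicate 1 at 4 of these 5 regions and lower at 1. Another cluster of 5 lay at the endocytic gene dnm2, with folds of 5.17 to 6.47 and 4.61 to 8.21, and another at ciita and dexi, with 4.47 to 11.4 and 5.05 to 7.87.

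**Figure D4:**
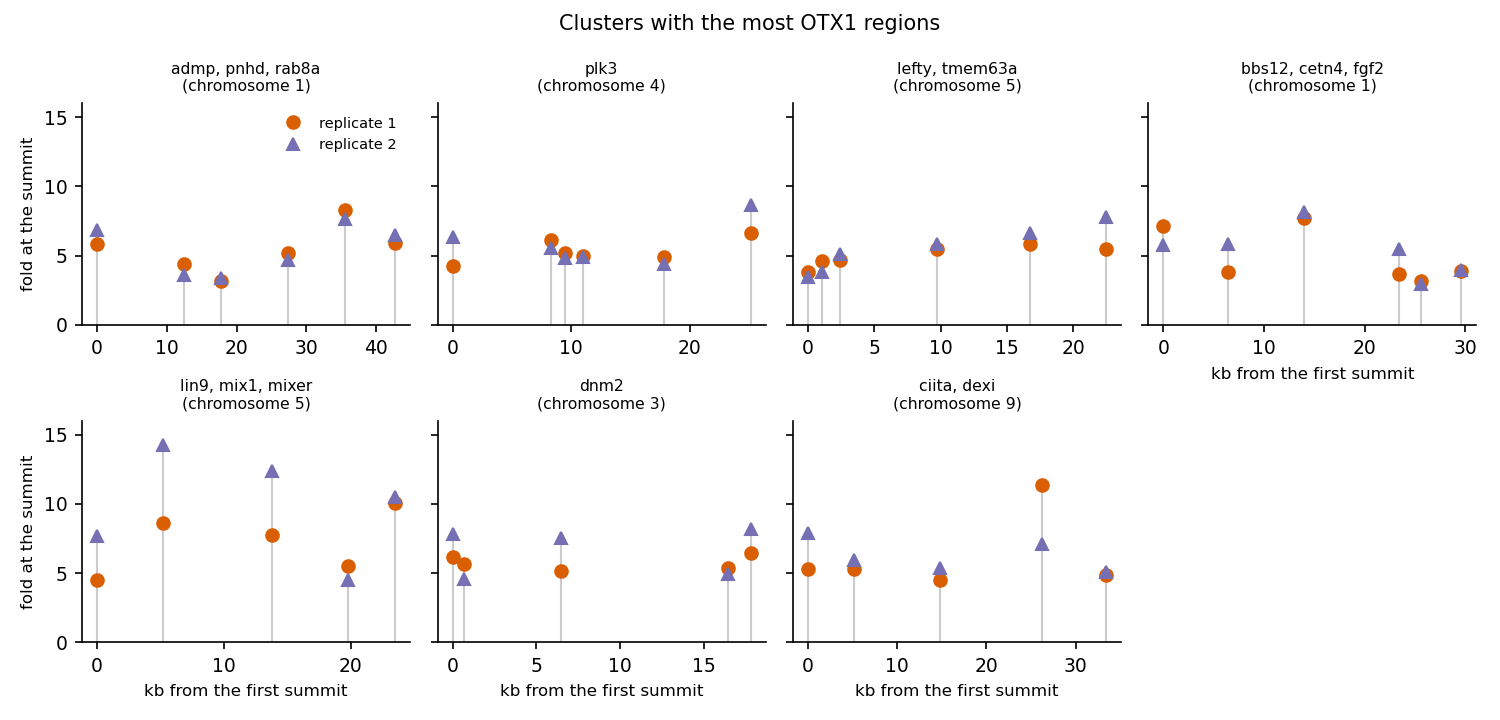
Clusters with the most OTX1 regions, 7 of the 8 largest. Each panel gives the fold at the summit in replicate 1 (circles) and replicate 2 (triangles) of every region of a cluster by its distance in kb from the first summit. Folds are mostly between 3 and 9, and the cluster at lin9, mix1 and mixer reaches 10.1 and 14.3.

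Genes were then grouped by function in 44 lists, of which 43 had at least 10 members. The first measure was the share of members with a region inside or within 10 kb, to be read against 41.6% of all genes. It was above that value in 34 of the 43 lists, and at least 1.5 times that value in 12. That number was 5 with only peaks on low local background, all among the 12, 6 by the list of replicate 2 alone, of which 4 were among the 12, and 8 by that of replicate 1 alone, of which 6 were. Since long genes collect more regions, the second measure was the number of distinct regions per Mb of the members' bodies and the 10 kb on each side, with overlapping stretches counted once. Over all protein-coding genes it was 12.9 per Mb. It was at least 1.5 times that in 12 lists, not the same ones. The lists share members, such as gsc, hhex, eomes and msx1, so they are not separate observations. They are also drawn by gene symbol or synonym, whereas the value of all genes covers 6156 genes known by locus number alone. The share among genes with a symbol is not given here, so the 34 lists above 41.6% may partly reflect this.

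The genes of early embryonic patterning had the densest surroundings. Genes known to be among the earliest zygotic transcripts had a region in 15 of 21 cases (71.4%; 81.0% and 85.7% by the lists of replicates 1 and 2 alone, against 55.0% and 54.4% of all genes), and 55.0 regions per Mb. Besides the mix genes these were led by nodal, a TGF-beta ligand that induces mesoderm, with 1 region 2.44 kb inside the gene at folds of 7.91 and 9.52. Its relatives nodal5 and nodal6 had 2 and 3 regions, of folds up to 6.22 and 9.25 at nodal5 and 6.30 and 6.95 at nodal6, while nodal1 and nodal2 had 0.

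Genes of the Spemann organizer, the dorsal signalling centre of the gastrula, had a region in 19 of 26 cases (73.1%), and 52.2 regions per Mb. Among them not, a notochord homeobox gene, had 3 regions with folds of 5.24 to 7.58 in replicate 1 and 5.29 to 7.24 in replicate 2. The homeobox gene gsc had 3 as well, the highest 227 bp from its end at 5.69 and 7.76. The head inducer cer1, an antagonist of Nodal and BMP, had 3, up to 5.31 and 5.09. The opposing ventral list of BMP targets had a region in 15 of 21 cases (71.4%), and 38.8 per Mb. Its highest were at ventx3.2, a homeobox repressor of dorsal fates (6.19 and 9.26), msx1 (6.10 and 6.96) and id3, an inhibitor of basic helix-loop-helix factors (5.95 and 6.64). Regions therefore lay near genes of both sides of the dorsoventral axis.

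Mesoderm and endoderm regulators followed. Of 41 mesoderm genes 27 had a region (65.9%), with 37.7 per Mb. The segmentation gene hes7.1 had 3 regions of up to 8.995 and 9.16, mespb had 2 of up to 7.97 and 8.39, and the repressor gene snai1 had 3 of up to 6.79 and 7.52. Of 27 endoderm genes 21 had a region (77.8%), with 24.5 per Mb. They included gata4, with 3 regions inside (up to 9.09 and 7.202), onecut1, with 1 inside (6.32 and 6.84), and hhex, with 2 (up to 6.31 and 6.08). The sparse mix, bix and siamois list, of 7 genes, had a region at 5, and its 7 distinct regions amounted to 51.1 per Mb.

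Genes of the otx and anterior neural list, the textbook setting of the otx family, had a region in 24 of 34 cases (70.6%), and 36.9 per Mb. The tallest were at barhl1 (8.80 and 10.5), the thyroid and forebrain gene nkx2-1 (7.41 and 7.88), lhx9 (6.99 and 9.58) and fezf1 (6.74 and 7.17). The otx genes themselves, named here because they encode the factor and its relatives, had low regions within 10 kb, the best ranked of each below the median folds of the map in both replicates. At otx1 there was 1 region 1.95 kb from an end, at folds of 3.89 and 4.93. At otx2 there was 1 inside, at 4.91 and 3.35, and 3 distal ones of up to 5.81 and 8.21. The photoreceptor gene crx had 3, of which the best ranked had 3.74 and 4.804. Many were also the nearest gene of a distal region, 21 of 34 (61.8%), against 12.6% of all genes. The distal ground closer to them than to other genes was large, a median of 59.8 kb per gene against 0 kb over all genes. That ground held 15.6 distal regions per Mb, against 10.9 overall. This was 1.42 times the value of all genes, whereas the density inside and within 10 kb was 2.85 times.

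Neural plate regulators were of the same kind, with 32 of 49 genes (65.3%) having a region within 10 kb, 26.3 per Mb, and 26 genes (53.1%) nearest to a distal one. Of the 49 genes 69.4% lay in the middle part of the chromosomes, as defined above, against 42.5% of all genes. That part held 15.4 regions of all kinds per Mb. The distal ground closer to the genes of this list than to other genes was a median of 65.3 kb per gene, against 0 kb over all genes. The part that position and ground play was not tested. Together the genes of this list were nearest to 101 distal regions, 15.9 per Mb of that ground, against 10.9 overall. The Iroquois homeobox genes of chromosome 6, named after their values were seen, took a large share, with 11 distal regions nearest to irx2, 10 to irx1 and 9 to irx4. The tallest had folds of 6.38 and 7.08 at irx2, 7.07 and 6.52 at irx1, and 4.91 and 5.28 at irx4. The neural gene sox3 had 9, up to 8.10 and 7.89, plus 1 region 5.36 kb from its end (8.43 and 7.96). Of the 20 genes of the sox list 7 (35.0%) had a region within 10 kb, at 6.85 per Mb, below the value of all genes, and 9 were nearest to a distal one, at 12.7 per Mb of that ground. One of the 7, sox18, which is also in the endoderm list, has a span of 354190 bp in the gene table, and the better ranked of its 2 regions lay 164837 bp from an end. No joined region lay within 1 kb of a sox gene's end, but peaks of replicate 1 did at 20% of the genes and peaks of replicate 2 at 5%, against 12.6% and 11.8% of all genes.

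Several developmental lists differed from all genes in the ground under the regions too. The median local background under the regions of the organizer, ventral, mesoderm, anterior neural and neural plate lists was 4.16 to 5.25 fragments in replicate 1 and 3.50 to 4.61 in replicate 2, against 2.64 and 2.28 for the regions of all genes. The summits in these lists held more fragments, a median of 23 to 26.5 in replicate 1 and 21 to 28 in replicate 2. For the regions of all genes the median was 18 in each replicate. The median folds of these lists, 4.49 to 4.99 and 4.78 to 5.48, were below the 5.24 and 5.76 of all genes. The small mix, bix and siamois list went the other way, with backgrounds of 2.27 and 2.09 and folds of 5.52 and 7.72. When only peaks with low local background were joined, the density over all genes was 11.9 per Mb. It was then 39.6 for the earliest zygotic genes, 51.1 for the mix list, 27.4 for the organizer, 21.5 for the anterior neural list, 17.6 for mesoderm, 16.8 for endoderm and 15.9 for the ventral list. It was 11.8 for epidermis and neural border regulators, 26.3 with all peaks, and 10.4 for the neural plate list. The share of genes with a region, relative to that of all genes under the same choice, fell below 1 in these 2 lists, to 0.89 and 0.76 times, and also in the ventral list, to 0.83 times, against 1.72 times with all peaks. This choice removes peaks by their background and keeps the full ground, so lists on high background were bound to lose more. Its limit, 4.77 and 4.06 fragments in replicates 1 and 2, lay below the neural plate list's median background. That list kept 19 regions, against 48 with all peaks. The falls therefore do not tell whether these lists lack an excess at equal background. What raises the local background in these lists was not tested.

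**Figure D5:**
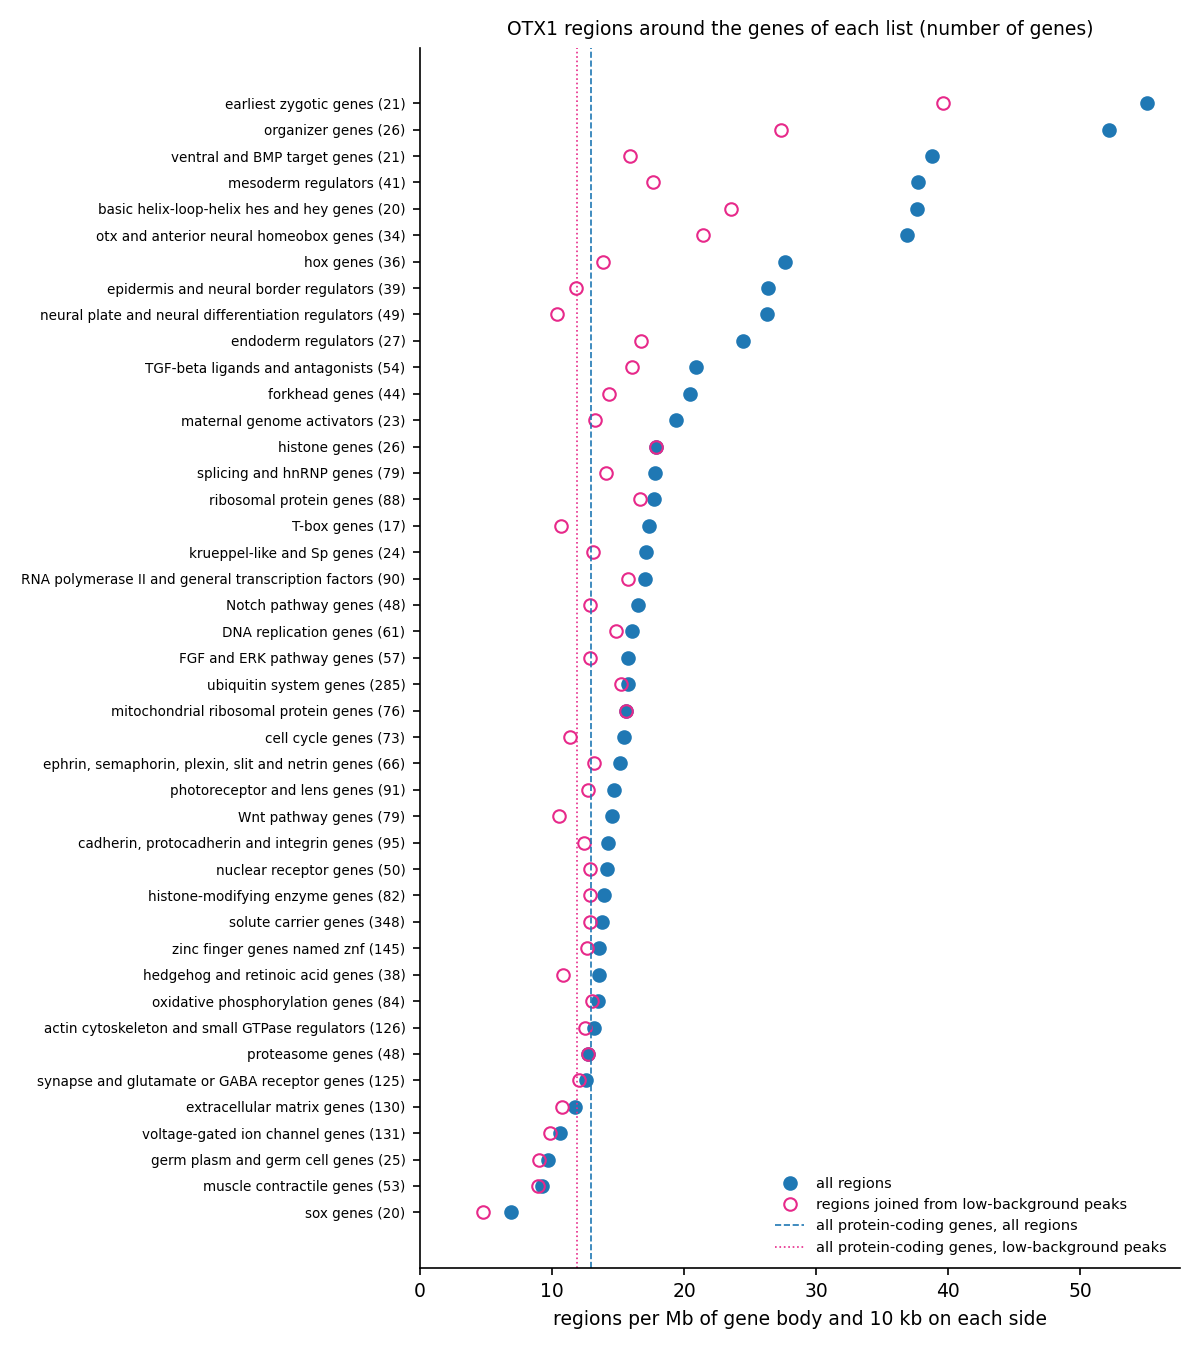
Distinct OTX1 regions per Mb of gene body and 10 kb on each side for 43 gene lists (number of genes in parentheses), with all regions (filled) and with regions joined from peaks on low local background alone (open); the lines mark all protein-coding genes, 12.9 and 11.9 per Mb. Early zygotic, organizer and other patterning genes are highest with all regions, and most of them move towards the lines without the peaks on high background.

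Smaller groups of regulators also had high densities with all peaks, and less so on low background. The hes and hey genes, basic helix-loop-helix repressors that often act below Notch, had a region in 12 of 20 cases and 37.7 per Mb, of which 23.5 per Mb remained on low background. Of 36 hox genes 22 had one, but the genes lie so close together that these were 16 distinct regions, at 27.6 per Mb. On low background 8 regions were left, at 13.8 per Mb against 11.9 for all genes, and the share of hox genes with a region was 0.69 times that of all genes, against 1.47 times with all peaks. The hox folds were low, with 6.34 and 5.69 at hoxb1 and 5.82 and 5.79 at hoxc3 as the highest. Forkhead genes had a region in 26 of 44 cases and 20.4 per Mb (14.3 on low background), for example 1504 bp from foxl2 (7.82 and 9.04). Members of the TGF-beta signalling list had one in 30 of 54 cases (55.6%) and 20.9 per Mb (16.1 on low background), among them the receptor genes acvr1b (9.66 and 8.50) and acvr1 (6.92 and 8.14).

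Genes of other signalling pathways were closer to the whole in density, though not in share. The Wnt list had a region in 45 of 79 cases (57.0%) and 14.5 per Mb, with 4 regions each at prickle1, a planar polarity gene (up to 8.80 and 9.49), and the ligand gene wnt3a (up to 7.72 and 8.07). The FGF list had 32 of 57 (56.1%) and 15.8 per Mb, led by the receptor gene fgfr1 (10.3 and 11.2). Of 48 Notch pathway genes 30 had one (62.5%), at 16.5 per Mb, including the processing protease gene adam10 (8.28 and 12.8). Hedgehog and retinoic acid genes had 21 of 38 (55.3%) and 13.5 per Mb, with rxra, a retinoid receptor gene, at 10.8 and 14.9.

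A second set of lists had high shares with ordinary densities. Genes of the ephrin, semaphorin, plexin, slit and netrin families, which guide axons and cell movements, had the highest share of all, 54 of 66 (81.8%). Their median length was 97.0 kb, against 15.5 kb for all genes, and the density around them was 15.1 per Mb, against 12.9. The same held for synapse genes, with 80 of 125 (64.0%) at 12.6 per Mb, and for extracellular matrix genes, with 83 of 130 (63.8%) at 11.7 per Mb. For actin and small GTPase regulators the share was 74 of 126 (58.7%) at 13.2 per Mb. In these lists many genes had a region, with 0.91 to 1.17 times the density around all genes.

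Cadherin, protocadherin and integrin genes, which encode adhesion molecules, took many of the distal regions. Of 95 such genes 42 (44.2%) were nearest to a distal region, against 12.6% of all genes. Together they were nearest to 218 distal regions. The distal ground closer to them than to other genes was large, a median of 20.1 kb per gene against 0 kb over all genes. Per Mb of that ground there were 14.6 distal regions, against 10.9 overall. In the middle part of the chromosomes lay 58.9% of these genes, against 42.5% of all genes. How far ground and position account for the count was not tested. Among named genes the one with the most distal regions was pcdh17 with 18, followed by cdh18 and cdh9 with 16 each, the zinc finger gene sall1 with 14, pcdh18 with 13, cdh11 and cdh8 with 12 each and basp1 with 11. These regions lay up to 382 kb from their gene, and their density was between 14.5 per Mb at cdh11 and 33.0 at basp1. Their folds were ordinary, with medians of 4.26 to 5.67 in replicate 1 and 5.18 to 6.44 in replicate 2. Inside genes the highest count was at pcdh9, 28 regions in a gene of 1.05 Mb, or 26.7 per Mb, which is above the 12.2 per Mb inside genes as a whole. This gene lies in the middle part of chromosome 2, which held 16.4 regions of all kinds per Mb. The genes named for inner regions were picked for their counts, which favours high densities. Other long genes with many regions were gpc6, a heparan sulfate proteoglycan gene (16, or 27.8 per Mb), diaph2, a formin gene (18, or 23.7), kirrel3 (15, or 20.5), pcdh11x (16, or 20.1), adgrl3 (17, or 14.2) and macrod2 (18, or 13.9).

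In lists of basic cell functions and of some differentiated tissues the share of genes with a region lay on both sides of the 41.6% of all genes. Among those above it were histone-modifying enzyme genes, 47 of 82 (57.3%), and ubiquitin system genes, 147 of 285 (51.6%). Splicing and hnRNP genes, 39 of 79 (49.4%), and DNA replication genes, 29 of 61 (47.5%), were above it too. Other lists were below it. Proteasome genes had a region in 14 of 48 cases (29.2%), oxidative phosphorylation genes in 26 of 84 (31.0%), photoreceptor and lens genes in 29 of 91 (31.9%) and the ribosomal list in 33 of 88 (37.5%). Their genes are short, with median lengths of 5.52 to 9.40 kb, and their densities of 12.7 to 17.7 per Mb were about equal to or above that of all genes. The ribosomal list takes in kinase genes that share the start of the name, such as rps6kb1 (9.09 and 9.86). Likewise the DNA replication list takes in cdc73, which is not a replication gene. The proteasome list takes in psme3ip1, which encodes no proteasome subunit. Of the lists over 50 genes, splicing and hnRNP genes had the highest share with a region at an end, 12 of 79 (15.2%), against 7.17% of all genes. An example lay 704 bp inside snrpa (9.47 and 9.19). Several smaller lists had higher shares, such as 28.6% in the ventral list and 23.1% in the organizer list. Muscle contractile genes were close to the whole in share, with 21 of 53 (39.6%), and below it in density, with 9.23 per Mb. Voltage-gated channel genes were below it in density too, with 10.6 per Mb, and above it in share, with 67 of 131 (51.1%).

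Single tall regions also lay in housekeeping genes: ercc3, a helicase gene of the general factor TFIIH (12.52 and 16.8), wee1, a cell cycle kinase gene (11.9 and 10.9), and prpf39.1, a splicing factor gene (12.7 and 10.3). The gene sp1, a general activator that is counted here among maternal factors, had a region 6.42 kb away (9.98 and 12.996). Of the 23 maternal activators of the zygotic genome 14 had a region (60.9%), with 19.4 per Mb and 13.3 per Mb on low background. At ybx1 it lay 291 bp from an end (7.89 and 8.64) and at pou5f3.2, an Oct4 relative, 1.22 kb from an end (8.33 and 7.48).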

How the data were processed

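Chromatin immunoprecipitation and sequencing libraries of OTX1 were described from the authors' peak lists, 1 per replicate. Per the submitters' processing notes the tools were MACS2 2.2.7.1, Bowtie2 2.4.5, deepTools and fastp, listed with no role. The sources used here do not give whether a control library entered peak calling. The local background may therefore include fragments of the OTX1 libraries themselves, which was not tested. The deposited score is a whole number per peak, the deposited fold is a ratio of summit signal to local background, and the deposited −log10 values are of the p and q at the summit. All 3 are the authors' and were used to describe, rank or filter peaks and, for the fold and p, to recover the pileup and background as given below. The largest q was 0.00999 and 0.00977 in replicates 1 and 2. Read totals are not in the lists.

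Summit pileup and local background were recovered from each peak's fold and p, with 1 added to both before the ratio and a Poisson upper tail for the p. A whole pileup reproduced −log10 p to within 3.18e-05 for every peak, whereas any other whole pileup was off by 0.127 or more. The lowest background was 1.59 and 1.35 fragments. Fragments that amplification copied are not independent, and no interval is given.

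Coordinates are 1-based on xenTr10, per the peak names. Genes came from a RefSeq table of UCB_Xtro_10.0, without strand, exons or sequence, so promoters, motifs and the planned gene-start alternative were not analysed. The 10 chromosomes carry 21748 protein-coding genes, and 6156 of them are known by locus number alone. Chromosome length is the last annotated or called position. A region takes the summit of its peak with the higher fold percentile. A list member's region is the one whose lower percentile of the 2 lists is highest.

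There is 1 group of 2 libraries and no contrast, so no test was made and values are descriptions. The members and lists were chosen with earlier results of these data known. Named were the 8 tallest regions of each position class, up to 4 members of each list with the highest region within 10 kb, the 8 genes with the most distal and with the most inner regions, and the 8 largest clusters; a few items that the rule names are not reported here. Genes outside this rule are those named from the earliest zygotic, organizer, otx, Iroquois and 1 Mb window results, after their values were seen. Joining, pileup recovery and position classes were tested on simulated data. Python 3.11.15, NumPy 2.4.6, pandas 2.3.3, SciPy 1.17.1 and matplotlib 3.10.9 were used.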

Additional observations from a re-analysis of the deposited data

How the results depend on the processing

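No paired analysis was possible because there is 1 group and no comparison between groups. Of 79 comparisons of a result with an alternative, 41 stayed within 1.5 times (counts) or within the SD of the replicates (shares and ratios). Some of the 41 could not move, so their number overstates stability. The list count and the distal share do not use the gene-end window. With scaffolds included the region count is the same by definition, and the shares change only by 8 regions in the total. Reciprocal overlap of 50% moved the chromosome density ratio to 1.24 and the share in clusters to 6.35%. Summits within 100 bp gave 1026 genes with a region at an end, a ratio of 1.24 and 5.04% in clusters. A −log10 q of at least 5 gave 7.45% at gene ends, 30.5% distal, 953 genes at an end, 1.26 and 5.50%. Low local background gave 30.7% distal, 1.18, 6.23% and 5 lists at or above 1.5 times the value of all genes, all among the 12. A single list in place of the join gave 27755 to 29098 regions, 8.61% to 9.60% at gene ends, 46.2% to 47.3% inside, 29.97% to 30.5% distal, 2562 to 2734 genes at an end, 3488 to 3587 nearest to a distal region, 1.14 to 1.16, 17.1% to 18.6% in clusters and 6 to 8 lists, of which 4 and 6 were among the 12. A gene-end window of 500 bp gave 5.48% at ends and 48.6% inside, and one of 5 kb gave 26.0%, 37.7% and 4790 genes. All gene types gave 9.17%, 47.9%, 27.7% distal and 24 lists, set against the share over all gene types. Distal beyond 50 kb gave 14.2% and 1119 genes. Cluster gaps of 5 and 25 kb gave 1.44% and 23.9%. Of 162 genes that lists name, 145 to 162 had a region within 10 kb under the alternatives of joining, threshold, background and replicate. These genes were picked for their high regions in the main join, and each such region holds a peak of both lists. High counts were therefore largely set by the choice and do not measure stability. Scaffolds hold no gene of the table, so gene and list counts have no value with them. The gene-start alternative was not run for want of strand. The median region rests on 18 fragments in each replicate and the lowest peaks of each list on 8, which limits the rank of weak regions.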

Other observations

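Among the 8 regions on unplaced scaffolds, the one on Sca124 had folds of 22.7 and 23.5 in replicates 1 and 2 and the one on Sca36 had 17.4 and 20.4, above nearly all regions on chromosomes. Of genes that make no protein, a region lay at an end of 99 of 2350 long non-coding RNA genes (4.21%), 6 of 187 microRNA genes (3.21%), 36 of 2366 transfer RNA genes (1.52%), 7 of 463 ribosomal RNA genes (1.51%), 7 of 614 small nuclear RNA genes (1.14%) and 1 of 342 small nucleolar RNA genes (0.292%). The share was 7.17% of all protein-coding genes but 3.50% of those of up to 2 kb, and the lengths of the RNA genes were not matched to these. On chromosome 1 regions lay among the gamma-crystallin genes, which encode lens proteins, with folds of 8.00 and 9.72 at 2.46 kb from crygdl.27 and of 7.83 and 10.1 at 2.49 kb from crygdl.16. On chromosome 6 the KRAB-type zinc finger gene znf665 had 4 regions within 10 kb, the tallest with folds of 16.03 and 13.2 at 4.89 kb from an end. On chromosome 9 the histone gene h2ac14 has a span of 1.19 Mb in the gene table with 18 regions inside, many of them beside other genes, so it was not counted among long genes with many regions.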
